A study of Arabidopsis thaliana with 6 samples.

Results

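IRX15, IRX15-L, GUT1, GUT2 and the peroxidase locus AT5G66390 are 5 of the 13350 genes that the array annotation named, and each was measured by 1 probe set. They were picked out by symbol or locus as a set of xylan and secondary wall synthesis genes, and the set was chosen by the mutant minus wild-type differences of these same arrays. Those differences are therefore given as a description, without a test. The arrays compared whole plants of the Columbia-0 (Col-0) ecotype, wild type against the cax1cax3 double mutant in that background, with 3 arrays of each genotype. CAX1 and CAX3 encode cation/H+ exchangers that load calcium into the vacuole. All plants were germinated on sucrose-containing medium and moved to soil, and the labels give an age of 40 days. RNA was taken once necrotic lesions had begun to show on the mutants. The labels do not say how many plants entered a sample or whether samples were grown separately, so the spread behind the p-values is that between these samples and could be technical.

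Secondary walls are laid down inside the primary wall of vessels and fibres after these cells stop expanding, and in Arabidopsis the inflorescence stem is rich in both cell types. They consist of cellulose, xylan and lignin. Xylan is a chain of xylose units built in the Golgi by glycosyltransferases, of which GUT2 (also named IRX10) and its close relative GUT1 extend the backbone. IRX15 and IRX15-L are paired Golgi proteins of the DUF579 family that are needed for normal xylan in stems. The IRX names come from the irregular xylem of mutants, in which weak vessel walls collapse. AT5G66390 is listed as peroxidase 72, a class III peroxidase. Enzymes of this class oxidise monolignols, the building blocks of lignin, in the wall, and many also act in defence or in roots.

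All levels below are deposited log2 values. Array medians lay between 7.03 and 7.08, and 22746 probe sets were tested after control probe sets were left out. The 27 probe sets for bacterial transcripts gave a background with a median of 4.04 and a 95th percentile of 4.70. Same-numbered arrays shared their deviations from the genotype mean, most of all the 2 arrays numbered 3, so some results are also given without those. The annotation assigned no probe set to CAX1 or CAX3, so the mutated genes gave no check of the genotype labels. In whole plants, fewer cells of a type and less RNA per cell cannot be told apart.

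The xylan pair of the DUF579 family was lower in the mutant on every array. IRX15 measured 8.38, 8.80 and 8.96 on wild-type arrays 1 to 3 and 6.99, 6.68 and 6.96 on mutant arrays 1 to 3. The lowest wild-type array therefore lay well above the highest mutant array. The wild-type mean was 8.72 ± 0.30 (SD, n = 3) and the mutant mean 6.88 ± 0.17 (SD, n = 3), a difference of -1.84 ± 0.17 (SE) on the log2 scale, or 3.57-fold lower. IRX15-L, its paralogue, measured 8.82, 9.49 and 9.73 in the wild type and 7.76, 7.08 and 7.90 in the mutant. Its SDs were 0.47 and 0.44, and the genotypes again did not overlap. The difference of IRX15-L was -1.77 ± 0.30 (SE), or 3.40-fold lower.

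GUT2, which extends the xylan backbone, was also lower in the mutant. Its levels were 9.19, 9.67 and 9.69 in the wild type and 8.17, 7.81 and 7.62 in the mutant. The mutant arrays again all lay below the wild-type arrays, and the difference was -1.65 ± 0.20 (SE), or 3.14-fold lower. Among the differences of all 22746 probe sets, counted from the most negative, IRX15 ranked 115, IRX15-L ranked 132 and GUT2 ranked 154. These ranks describe the values by which the genes were chosen.

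GUT1, the relative of GUT2, showed a small difference. It measured 8.86, 8.68 and 8.81 in the wild type and 8.68, 8.43 and 8.42 in the mutant. The lowest wild-type array and the highest mutant array were both at 8.68. The difference was -0.27 ± 0.11 (SE), and same-numbered arrays differed by -0.18, -0.25 and -0.39.

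AT5G66390 did not separate the genotypes. It measured 5.73, 6.08 and 5.06 in the wild type and 6.13, 5.88 and 4.47 in the mutant. Array 3 was the lowest of each genotype, and on mutant array 3 the probe set lay below the 95th percentile of the bacterial probe sets. The difference was -0.13 ± 0.47 (SE), with a mutant SD of 0.90. It was 0.10 without both arrays numbered 3, and between -0.45 and 0.38 when single arrays were left out. For the other 4 genes, leaving out single arrays kept the difference negative, between -2.00 and -1.71 for IRX15, -2.03 and -1.52 for IRX15-L, -0.36 and -0.23 for GUT1, and -1.82 and -1.53 for GUT2. Thus 3 of the 5 genes had mutant arrays wholly below the wild-type arrays, beside 13.0% of all probe sets. The rule that chose the genes used this contrast, so nothing is read from that count.

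**Figure D1:**
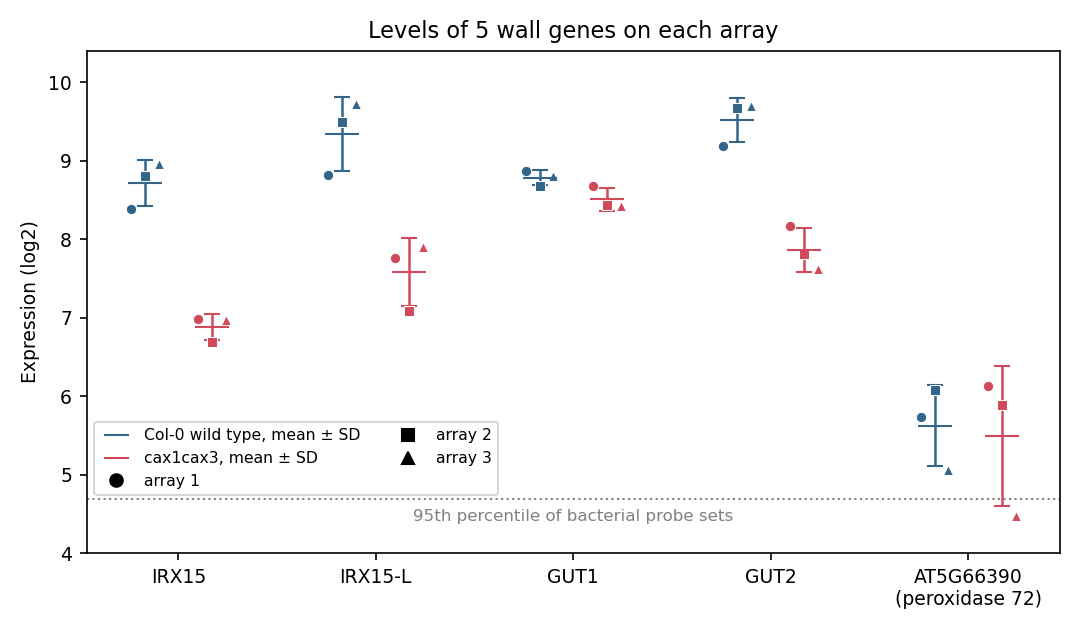
Log2 expression of the 5 genes on the 3 wild-type arrays (blue) and the 3 cax1cax3 arrays (red). Circles, squares and triangles are arrays 1, 2 and 3, horizontal bars with whiskers are means ± SD, and the dotted line is the 95th percentile of the bacterial probe sets at 4.70. IRX15, IRX15-L and GUT2 separate the genotypes, GUT1 touches at 8.68, and AT5G66390 overlaps and is lowest on array 3 of each genotype.

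Within the wild type, IRX15, IRX15-L and GUT2 were all lowest on array 1. The difference between same-numbered arrays was smallest for number 1, at -1.39 for IRX15, -1.06 for IRX15-L and -1.02 for GUT2. For number 2 it was -2.12, -2.41 and -1.86, and for number 3 it was -2.00, -1.83 and -2.08. In the mutant the order differed between the genes. Both DUF579 genes were lowest on array 2, and GUT2 was lowest on array 3. Without both arrays numbered 3 the differences were -1.76 for IRX15, -1.73 for IRX15-L and -1.44 for GUT2.

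The closest relatives of these genes were then read from family lists. A gene is counted as measured where the annotation gave it a probe set of its own. Other genes may lie among the probe sets left without a name. Of the 5 other DUF579 genes, 4 were measured and 0 were called lower or higher by limma at an adjusted p under 0.05. For comparison, 3.28% of all probe sets were called lower and 2.34% higher. At an unadjusted p under 0.05, 2 were lower and 1 was higher, and with a replicate block the count of calls was again 0. With array weights AT1G71690 was called lower (limma adjusted p = 0.0462), beside 1560 of all 22746 probe sets. The share of all probe sets passing without adjustment was not counted, so nothing is read from unadjusted counts here or below. Their median difference was -0.18, beside 0.01 over all probe sets, and their differences ran from -0.58 for AT1G71690 (limma adjusted p = 0.247) to 0.36 for AT1G67330 (limma adjusted p = 0.175). AT1G71690 measured 6.32, 6.81 and 6.11 in the wild type and 5.84, 5.47 and 6.19 in the mutant, so its genotypes overlapped.

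The GT47 family, to which GUT1 and GUT2 belong, contains glycosyltransferases for several wall polysaccharides. Of 34 other family genes, 18 were measured, of which 0 were called lower and 1 was called higher, and the median difference was 0.00. At an unadjusted p under 0.05, 4 were lower and 3 higher in limma, again with no share over all probe sets to set beside them. With array weights 1 was called lower and 1 higher, beside 1560 and 1286 of all 22746 probe sets. The called gene was AT4G16745, which rose from 6.40, 6.34 and 6.22 to 6.99, 6.74 and 7.12. Its difference was 0.63 ± 0.13 (SE, limma adjusted p = 0.0375). The call was lost when any 1 of the 6 arrays was left out, with a limma adjusted p of up to 0.133, reached without wild-type array 2. The adjusted p was 0.0775 without both arrays numbered 3.

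Enzymes that add acetyl groups to xylan showed no called change with all 6 arrays and no array weights. With array weights 1 was called lower, beside 1560 of all 22746 probe sets. Of 9 genes listed, 5 were measured, with 0 called by limma in either direction and a median difference of -0.15. At an unadjusted p under 0.05, 2 were lower and 0 higher. Without both arrays numbered 3, TBL34 was called lower (limma adjusted p = 0.0473), beside 4.50% of all probe sets. TBL35, which adds acetyl groups to xylose units, measured 6.84, 6.84 and 6.96 in the wild type and 6.51, 6.54 and 6.14 in the mutant. The genotypes of TBL35 did not overlap, and its difference was -0.48 ± 0.13 (SE, limma adjusted p = 0.0929).

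Synthases of other hemicelluloses gave calls in 1 direction. Of 9 CSLA and CSLC genes listed, 6 were measured, and 2 fell, beside 3.28% of all probe sets, with a median difference of -0.61 over the 6. The count was 0 without any 1 wild-type array or without mutant array 2, 1 without mutant array 1 and 3 without mutant array 3. CSLA01, of the glucomannan synthase family, fell from 8.17, 8.92 and 10.55 to 5.07, 4.82 and 7.01, with array 3 the highest in each genotype. Its difference was -3.58 ± 0.76 (SE, limma adjusted p = 0.0469, and 0.00877 with the replicate block), and without mutant array 2 the adjusted p was 0.173. CSLC8, of the family that makes the xyloglucan backbone of primary walls, fell by 0.70 ± 0.11 (SE, limma adjusted p = 0.0203), and the adjusted p was 0.0952 without wild-type array 2. With the replicate block 4 of the 6 were called lower, beside 5.15% of all probe sets, and CSLC5 and CSLC6 were the additional genes. The differences of the pair were -0.80 and -0.52. Without both arrays numbered 3 the count of lower calls was 4, beside 4.50% of all probe sets.

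A list of loci recalled from surveys of Arabidopsis genes that are co-expressed with the secondary wall cellulose synthases differed in the same direction as IRX15, IRX15-L and GUT2. The list was added after the values of those genes were seen, and its membership was not checked against the published surveys. Of 17 loci, 14 were measured. By limma at an adjusted p under 0.05, 13 fell in the mutant, beside 3.28% of all probe sets. None rose, and the median difference was -1.33. All 13 had mutant arrays below every wild-type array, as had 13.0% of all probe sets. IRX15 and IRX15-L are known from the same surveys, so the list is not independent of how those genes came to be grouped. Whether the surveys also name GUT2 was not checked, so the list is not taken as independent of GUT2 either.

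Of these loci, AT2G41610 measured 8.19, 8.49 and 8.46 in the wild type and 6.66, 6.38 and 6.41 in the mutant. It fell by 1.90 ± 0.13 (SE, limma adjusted p = 0.00236). AT4G27435 measured 9.59, 10.22 and 10.13 in the wild type and 8.05, 7.97 and 7.98 in the mutant, and fell by 1.98 ± 0.17 (SE, limma adjusted p = 0.0044). Both were called in all 6 fits that left out 1 array.

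SP1L5, a member of the SPIRAL1 family of microtubule-associated proteins, had the largest difference of the list. It measured 7.93, 8.41 and 8.55 in the wild type and 6.69, 6.01 and 5.68 in the mutant, 4.50-fold lower, with a difference of -2.17 ± 0.28 (SE, limma adjusted p = 0.0111). AT4G08160, which RefSeq lists with the synonym ATXYN3, fell by 1.23 ± 0.15 (SE, limma adjusted p = 0.00952). FRA3, an inositol polyphosphate phosphatase that fibres need for normal walls, was the 1 measured locus not called. It ran from 8.91 to 9.38 over the 6 arrays, and its difference was 0.05.

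The count of 13 changed when an array was left out. It was 9, 3 and 7 in fits lacking wild-type array 1, 2 and 3, and 11, 3 and 12 in fits lacking mutant array 1, 2 and 3. Over all probe sets, the lower calls of the same fits were 1.63%, 0.725% and 1.93%, then 2.06%, 0.646% and 4.16%, so calls became fewer across the table in all of these fits but the last. Without both arrays numbered 3 it was 11, beside 4.50% of all probe sets called lower in that comparison. Wild-type array 1 was the lowest of its genotype for 12 of the 14 loci, as for IRX15, IRX15-L and GUT2, beside 32.4% of all probe sets.

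**Figure D2:**
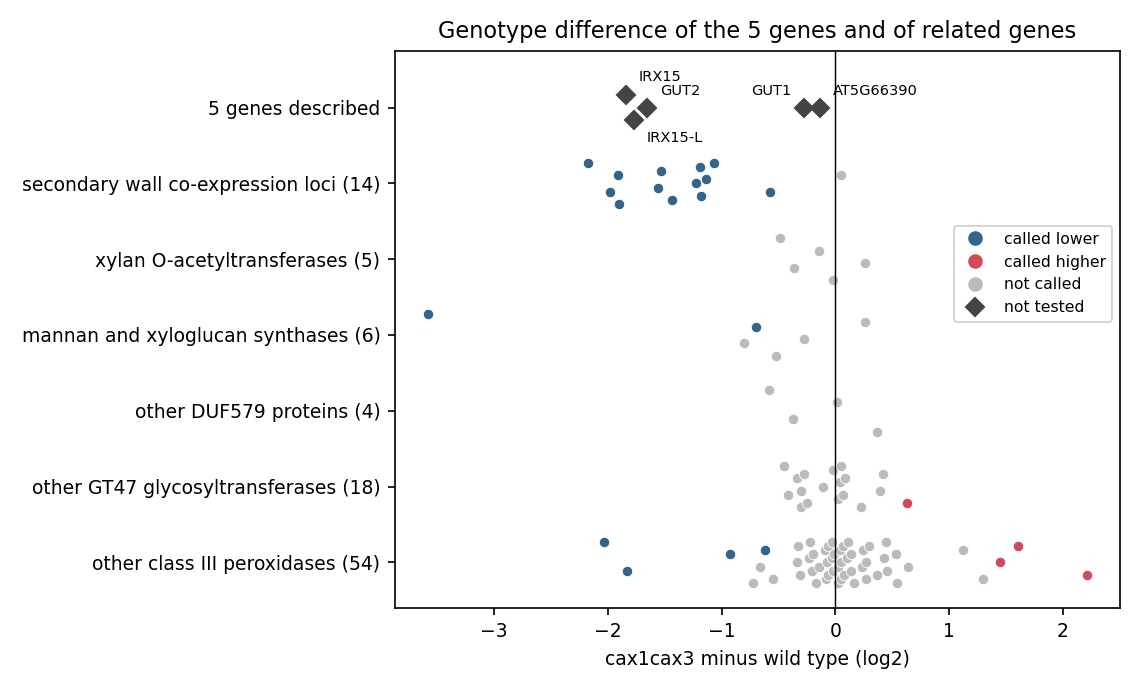
Mutant minus wild-type difference (log2) of the 5 genes (diamonds, not tested) and of the measured genes of 6 lists (circles, number measured in brackets). Blue and red circles passed limma at an adjusted p under 0.05, and grey circles did not. The 13 co-expression loci called lower lie between -2.17 and -0.57, while the other DUF579 and GT47 genes scatter about 0.

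The annotation covered few other genes of secondary walls. Of 13 wall lists drawn up for these genes, 6 had no gene that the annotation named with a probe set of its own. Among these 6 were the other xylan backbone enzymes, the secondary wall cellulose synthases, the wall regulators and the vessel genes. In the remaining lists, COB, which orients cellulose deposition in expanding cells, differed by -0.30 (limma adjusted p = 0.191). HCT, an enzyme of monolignol synthesis, measured 11.17, 11.36 and 11.34 in the wild type and 10.84, 10.82 and 10.99 in the mutant. The genotypes of HCT did not overlap, but it was not called (limma adjusted p = 0.0748). With array weights HCT was called lower (limma adjusted p = 0.0223), beside 1560 of all 22746 probe sets. The other measured gene of monolignol synthesis, CCR2, a cinnamoyl-CoA reductase, differed by 0.33 (limma adjusted p = 0.491), so 0 of the 2 measured of 18 genes were called, and 1 was lower at an unadjusted p under 0.05. The laccase LAC16 lay at background on all 6 arrays. For the pectin and xyloglucan of growing walls, 3 of 18 genes were measured and 0 were called by limma, with 0 also at an unadjusted p under 0.05. Of these, EXPA4, an expansin, differed by -0.35 (limma adjusted p = 0.378). EXPA8, of the same list, was called lower without both arrays numbered 3 (limma adjusted p = 0.0236), beside 4.50% of all probe sets.

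The relation to the stem could be read from 1 gene only. The labels do not give the share of stem in each sample, and of 9 genes listed for the stem cuticle the annotation named WSD1, the wax ester synthase of stem wax. WSD1 measured 9.11, 9.50 and 9.49 in the wild type and 7.65, 7.53 and 6.63 in the mutant. It fell 4.28-fold, with a difference of -2.10 ± 0.28 (SE, limma adjusted p = 0.0114), and wild-type array 1 was again the lowest of its genotype. In the mutant WSD1 was lowest on array 3, as was GUT2, whereas IRX15 and IRX15-L were lowest on array 2. WSD1 was called in 4 of the 6 fits that left out 1 array, and its limma adjusted p was 0.0608 without wild-type array 2. None of 8 markers of cambium and phloem was named by the annotation with a probe set of its own.

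Flower and silique markers also had their calls on the lower side. For the 3 measured of 12 flower genes, the mean level was 5.08 to 5.24 over the wild-type arrays and 4.65 to 4.72 over the mutant arrays. Of these 3, A9, a gene of the anther tapetum, fell by 0.71 ± 0.14 (SE, limma adjusted p = 0.0391). A9 was called in 2 of the 6 fits that left out 1 array. SHT, an acyltransferase of pollen coat synthesis, differed by -0.44. Its limma adjusted p was 0.0791 without and 0.0412 with the replicate block. With array weights 2 of the 3 flower genes were called lower, beside 1560 of all 22746 probe sets. AMS, a regulator of the tapetum, overlapped between genotypes, differed by -0.32 and lay at or below background on 5 of the 6 arrays.

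For the 3 measured of 11 silique and seed genes, the mean level was 6.39 to 7.76 over the wild-type arrays and 4.99 to 5.40 over the mutant arrays. DELTA-VPE, a protease of the seed coat, fell from 9.76, 10.17 and 7.64 to 4.94, 4.69 and 5.58, a difference of -4.12 ± 0.64 (SE, limma adjusted p = 0.0182, and 0.0929 without mutant array 2), with 1 mutant array at background. BAN, a flavonoid reductase of the seed coat, fell by 1.05 ± 0.21 (SE, limma adjusted p = 0.0401). BAN was called in 1 of the 6 fits that left out 1 array. ALC, a regulator of pod opening, differed by -1.09 (limma adjusted p = 0.0607, and 0.0103 without both arrays numbered 3).

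Leaf and root markers gave no call in the fit without a block or array weights. For the 3 measured of 11 leaf photosynthesis genes, the mean level was 12.78 to 13.07 over the wild-type arrays and 12.38 to 12.59 over the mutant arrays. All 3 had a negative difference, with a median of -0.42. None was called by limma with all 6 arrays and no block or array weights, and 2 were lower at an unadjusted p under 0.05. With array weights 2 of the 3 were called lower, beside 1560 of all 22746 probe sets. SBPASE of the Calvin cycle, at -0.67, had a limma adjusted p of 0.0607, and of 0.0207 with the replicate block. Without both arrays numbered 3 the adjusted p of SBPASE was 0.0286. For the 3 measured of 11 root genes, the mean level was 7.15 to 7.47 over the wild-type arrays and 7.16 to 7.48 over the mutant arrays. None of the root genes was called by limma, and 0 passed an unadjusted p under 0.05. Of these, EXPA7 and EXPA18 lay near background on all arrays, between 4.75 and 5.23. In all, 4 of the 13 measured organ markers were called lower, beside 3.28% of all probe sets. Leaving out both arrays numbered 3 gave 6, beside 4.50% of all probe sets. The count was 2 without wild-type array 1, 1 without mutant array 1, and 0 without wild-type array 2 or mutant array 2, where 0.725% and 0.646% of all probe sets were called lower. The mean levels of the stem, flower, silique and leaf lists were thus all lower on the mutant arrays, as were IRX15, IRX15-L and GUT2, and the part of organ markers in those differences was not tested.

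**Figure D3:**
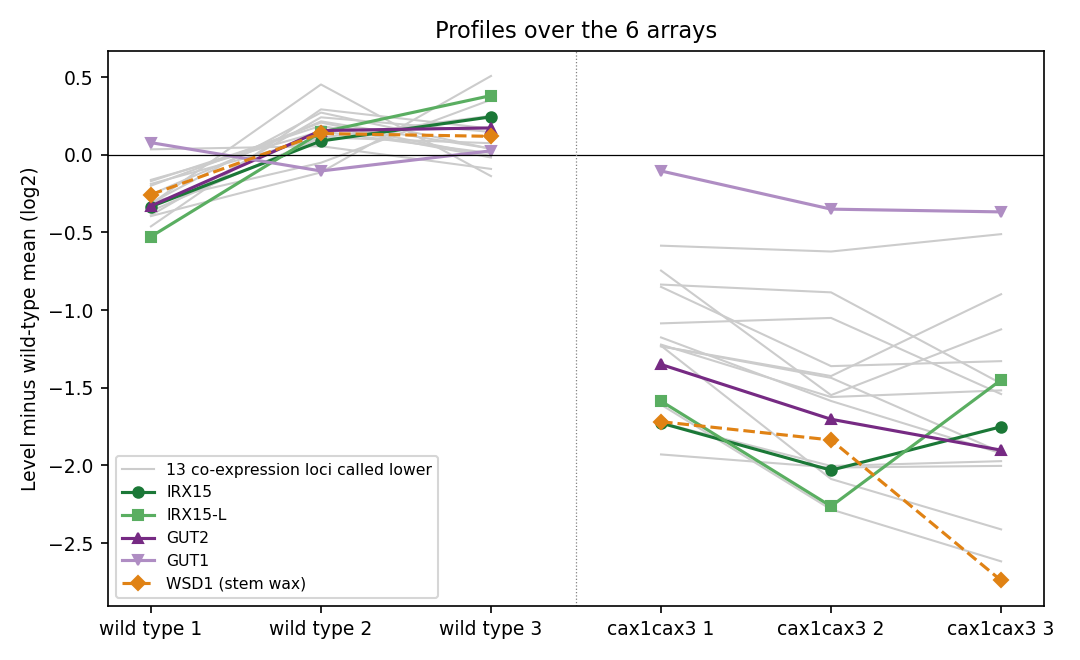
Level minus the wild-type mean (log2) on each array for IRX15, IRX15-L, GUT2, GUT1, the stem wax gene WSD1 and the 13 co-expression loci called lower (grey). Lines only join the points of a gene within a genotype. In the mutant, WSD1 and GUT2 are lowest on array 3, and IRX15 and IRX15-L on array 2. IRX15, IRX15-L, GUT2 and WSD1 are lowest of the wild type on array 1 and lie more than 1 log2 unit below the wild-type mean on every mutant array, while GUT1 stays near the wild-type level.

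AT5G66390 was compared with the other class III peroxidases, of which 54 of 72 were measured. Of these, 4 fell, 3 rose and 47 were not called, beside 3.28% lower and 2.34% higher over all probe sets, and the median difference was 0.03. With the replicate block, 5 were called lower and 5 higher, beside 5.15% and 4.63% of all probe sets. The additional calls were AT2G22420 on the lower side and Prx37 and AT4G08780 on the higher side. Without both arrays numbered 3, 4 were called lower and 5 higher, beside 4.50% and 4.28% of all probe sets. In fits lacking wild-type array 1, 2 and 3, the lower calls numbered 1, 0 and 4 and the higher calls 2, 2 and 2. In fits lacking mutant array 1, 2 and 3, the lower calls numbered 1, 0 and 3 and the higher calls 1, 1 and 4. Over all probe sets, the higher calls of those 6 fits were 0.998%, 0.620% and 1.40%, then 1.69%, 0.475% and 3.50%, and their lower calls are the shares given with the co-expression loci.

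Of the peroxidases that fell, AT1G44970 measured 7.59, 7.44 and 7.21 in the wild type and 5.25, 4.84 and 6.06 in the mutant, a difference of -2.03 ± 0.30 (SE, limma adjusted p = 0.0154). AT5G47000 measured 6.71, 6.69 and 5.66 in the wild type and 4.45, 4.26 and 4.86 in the mutant, where 2 of the 3 arrays lay below the 4.70 background level. Its measured difference of -1.83 (limma adjusted p = 0.0231) is limited by that background. AT4G16270 differed by -0.92 (limma adjusted p = 0.0122) and AT5G40150 by -0.62 (limma adjusted p = 0.0344). Of those that rose, AT5G64110 measured 5.09, 4.87 and 5.04 in the wild type and 6.66, 6.53 and 6.63 in the mutant. It rose by 1.61 ± 0.10 (SE, limma adjusted p = 0.00209), or 3.05-fold, and was called in all 6 fits that left out 1 array. PRX71, a peroxidase known to respond to wall damage and stress, rose by 2.21 ± 0.46 (SE, limma adjusted p = 0.0421), and AT2G37130 rose by 1.45 ± 0.26 (SE, limma adjusted p = 0.0266). The other called peroxidases kept the call in fewer of those 6 fits. It was kept in 4 for AT4G16270, 3 for AT2G37130, 2 each for AT1G44970, AT5G47000 and PRX71, and 0 for AT5G40150.

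Like AT5G66390, 17 of the 54 other peroxidases were lowest on array 3 in both genotypes, beside 19.3% of all probe sets. PRX25 measured 7.76, 8.25 and 6.46 in the wild type and 7.44, 7.74 and 5.65 in the mutant. AT4G33420 measured 8.90, 9.14 and 6.70 in the wild type and 9.21, 9.45 and 7.36 in the mutant. The root gene PYK10, a beta-glucosidase of root endoplasmic reticulum bodies, was also lowest on array 3 of each genotype, at 11.61 and 11.15, and it was chosen after its values were seen. The other measured root markers, EXPA7 and EXPA18 of root hairs, were not: on array 3 of the mutant they lay 0.20 and 0.04 above the mean of arrays 1 and 2. For AT5G66390, array 3 lay below the mean of arrays 1 and 2 by -0.84 in the wild type and -1.54 in the mutant. The arrays numbered 3 did not differ in this way for IRX15 or IRX15-L, which were higher there than the mean of arrays 1 and 2 in both genotypes. What the arrays numbered 3 share is not given in the labels and was not tested.

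**Figure D4:**
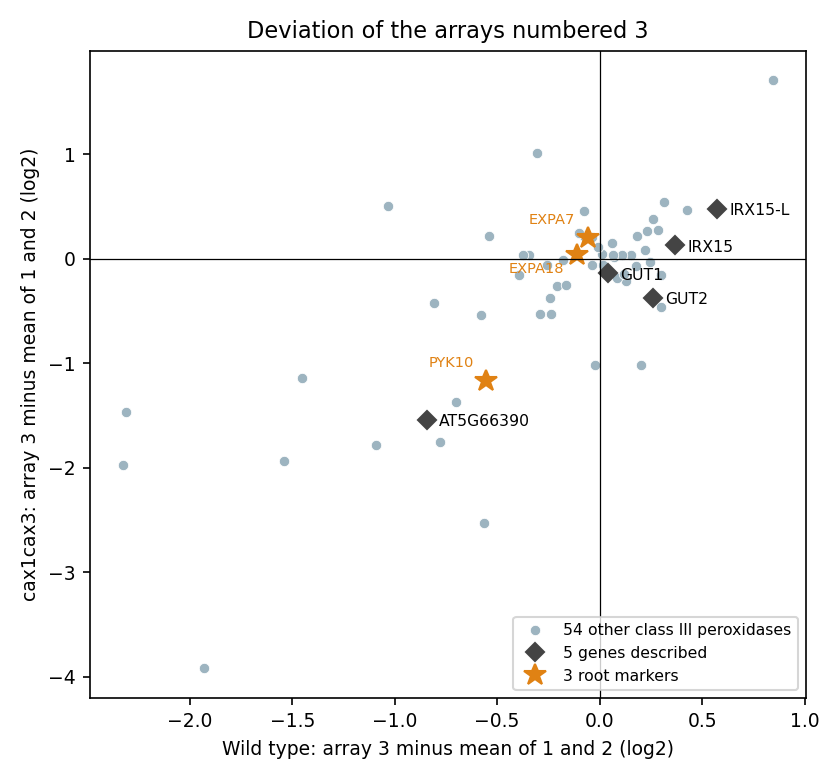
Array 3 minus the mean of arrays 1 and 2 (log2), in the wild type (horizontal axis) and in cax1cax3 (vertical axis), for the 5 genes (diamonds), 54 other class III peroxidases (circles) and the 3 measured root markers (stars). AT5G66390, at -0.84 and -1.54, lies at the lower left with PYK10 and a group of peroxidases. The root markers EXPA7 and EXPA18, both near background on all arrays, and the other 4 genes lie nearer to 0.

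The genes whose profile over the 6 arrays was most like the mean of the 5 genes were AT3G62730, AT5G60720, SP1L5, AT1G25530, AT3G13510 and AT3G59845. Their Pearson r ran from 0.994 to 0.998, among 6317 named probe sets whose SD over the arrays was at least that of GUT1. AT5G60720 and SP1L5 also belong to the co-expression list. Each r was taken over 6 arrays of 2 genotypes and so includes the genotype difference by which the 5 genes were chosen. It is a description only.

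For the single genes, UGT84A1 was most like IRX15 at an r of 0.999, although its own difference was -0.39. AT1G10850 was most like IRX15-L at 0.994, and AT2G31930 was most like GUT2 at 0.998. ACLB-1, a subunit of ATP citrate lyase, was most like GUT1 at 0.996. AT2G33390 was most like AT5G66390 at 0.991. The genes next in likeness were AT1G75280, AT1G47410, AT1G53070, AT3G16850 and AT3G33073, for IRX15, IRX15-L, GUT2, GUT1 and AT5G66390 in turn.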

How the data were processed

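Biotin-labelled RNA of whole plants was measured on Affymetrix arrays, 3 of each genotype. The deposited table holds the authors' log2 expression values per probe set, running from 3.35 to 14.50. Per the submitters' processing notes, GCOS 1.1.2 and RMA were used, with role and order not given in the sources used here. RMA normalizes between arrays, so a shift common to all probe sets would not show. No further scaling was applied.

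Of 22810 probe sets, 64 controls were left out. GEO's platform annotation gave 1 gene for 13513 of the 22746 tested, several for 503 and none for 8730. Symbols of 13436 were updated through the gene number in a RefSeq table of assembly TAIR10.1. No sequence or coordinate was used. Each measured gene of the lists had 1 probe set.

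Genotypes were compared with limma 3.58.1 in R 4.3.3 (lmFit and eBayes, no covariates, 6 arrays, Benjamini-Hochberg adjustment over 22746 probe sets). A call is an adjusted p under 0.05, and differences are mutant minus wild type. A fold is 2 to the power of the log2 difference. The SE of a difference is limma's, and a level with an SD is a mean over 3 arrays. On data simulated with the arrays' own spread, the test called 65% of 100 probe sets with a true difference of 1 and 87% of 100 with a difference of 2, with 5 false calls, and 0 were called with no change. The effect of deviations shared by same-numbered arrays on these calls was not tested. The number of arrays limits the precision.

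In the labels the arrays of a genotype carry the numbers 1 to 3. Deviations from the genotype means correlated at 0.433, 0.292 and 0.471 between arrays numbered 1, 2 and 3, all above 0.1. The numbers were therefore taken to pair the samples, from the data rather than from a stated batch. Wild-type array 2 with mutant array 1 (0.12) and wild-type array 1 with mutant array 2 (0.116) also passed 0.1. That limit therefore does not single out same-numbered arrays. Arrays numbered 3 correlated with arrays 1 and 2 of the other genotype at -0.411 to -0.263. Whether same-numbered samples shared a batch or day is not stated.

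The 5 genes and the lists were chosen with earlier results of these data known. Of 266 genes in 13 wall lists, 83 were measured, and of 62 genes in 6 organ marker lists, 13 were. Because so few were named, 3 lists (xylan acetylation, CSLA and CSLC synthases, co-expression loci) of 35 genes, 25 measured, were added after the values of the 5 genes were seen. Of each list up to 4 genes are named in order of adjusted p, or the one with the largest difference where none was called, with others to complete a short list. The peroxidases lowest on array 3 and the further peroxidases of the block were named after their values were seen. The genes most alike in profile were those with the highest Pearson r over the 6 arrays. Alternatives were the replicate block, quantile normalization, centring on array medians, a filter on low probe sets, array weights, trended robust moderation, leaving out each array and leaving out both arrays numbered 3, the last chosen after seeing the data.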

Additional observations from a re-analysis of the deposited data

How the results depend on the processing

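Of all probe sets, 747 were called lower and 532 higher. With the replicate block these counts were 1171 and 1053, with array weights 1560 and 1286, and without both arrays numbered 3 they were 1023 and 973. Leaving out single arrays gave 147 to 947 lower and 108 to 797 higher. Of the 83 measured genes in the wall lists, 4 were called lower and 4 higher; leaving out single arrays gave 0 to 5 and 1 to 4, and array weights gave 9 lower. The 4 organ markers called lower became 8 with array weights, 6 without both arrays numbered 3 and 0 to 4 when single arrays were left out. The 13 co-expression loci called lower became 3 to 12 when single arrays were left out, and 13 remained the count with the replicate block and with array weights. The differences of the 5 genes moved by less than 1 SD under all 13 alternatives. Of 33 other single genes compared, 24 were called, of which 0 changed direction. Of the 9 not called, 1 did: FRA3, at 0.05, ran from -0.0807 without wild-type array 3 to 0.154 without wild-type array 2 when single arrays were left out, was also below 0 without mutant array 1, at -0.0125, and was -0.0218 without both arrays numbered 3. A choice of the probe set with the lowest p was not run, since each measured gene had 1 probe set. The replicate block changed no call beyond those given with the results. Levels near 4.70, as for AT5G66390 on mutant array 3, are limited by background.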
